A study of Polypedilum vanderplanki with 8 samples.

Results

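Isolated peaks in sparse chromatin are short stretches of open chromatin with no other peak nearby on either side, and 702 of them were found among the 12035 peaks that the experiment produced in Pv11 cells. They were chosen by measured values of the peak list, namely their width and their spacing. A peak of chromosome 1, 2 or 3 was a member when it was narrower than 3000 bp and when the gaps to the previous and to the next peak of its chromosome were both above 10000 bp. The first and the last peak of each chromosome were left out, 6 in all. These 3 chromosomes held 10998 peaks, so that 6.38% of them were isolated. A further 3 peaks met the spacing rule but were 3000 bp or wider, and 2802 peaks under 3000 bp had 1 gap above 10000 bp. Another 7042 peaks under 3000 bp had neither gap above it, and they are called clustered peaks here.

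Pv11 is a cultured cell line of the sleeping chironomid, Polypedilum vanderplanki, a midge whose larvae survive almost complete drying, and the cells share this ability once they have been kept in trehalose. ATAC-seq libraries were made from wild-type Pv11 cells before trehalose treatment (n = 3) and after 48 h in a preconditioning medium with 600 mM trehalose (n = 3). Long-read MinION libraries of the transgenic clones B2 and 4C (n = 1 each) gave no values used here. The peaks come as a single list for the experiment, in which no column names a library or a condition. Each value is therefore a single value without a replicate error, the depth behind it is unknown, and normal culture cannot be set against trehalose.

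In ATAC-seq a transposase cuts DNA that is not wrapped tightly around nucleosomes, so a peak marks a place where the DNA is accessible in many cells. In insect genomes such places are mostly promoters, where transcription starts, and enhancers, short elements bound by transcription factors that act on a promoter from a distance. Genes and their elements often lie close together, and peaks then follow each other at short distances. An isolated peak stands alone in a stretch where the assay found nothing else, as can occur in long introns, between distant genes or in compacted, repeat-rich chromatin. Which of these holds for a given member was not tested, because the analysis used neither a genome nor gene models of the assembly that the coordinates refer to. No base sequence is printed for the same reason.

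The members were spread over all 3 chromosomes. Chromosome 1 held 253 of them, or 6.30% of its 4015 peaks (95% binomial interval by the Clopper-Pearson method 5.57% to 7.10%, which covers counting error alone). Chromosome 2 held 238 of 3869 peaks (6.15%, 5.41% to 6.96%) and chromosome 3 held 211 of 3114 (6.78%, 5.92% to 7.72%). The intervals overlap, and per Mb up to the last peak the 3 chromosomes held 6.86, 6.76 and 6.75 isolated peaks. The members covered 305620 bp in all, which was 3.18% of the bp covered by peaks on these chromosomes. They held 3.06% of the summed area.

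The empty flanks of the members were often far longer than the rule required. The shorter flank had a median of 18031 bp and the longer a median of 43779 bp. The shorter flank was between 10 and 20 kb in 392 members (55.8%), between 20 and 50 kb in 261 (37.2%), between 50 and 100 kb in 47 (6.70%) and above 100 kb in 2. The longer flank was between 50 and 100 kb in 226 members (32.2%) and above 100 kb in 78 (11.1%). From the peak before to the peak after, the stretch around a member had a median length of 66246 bp and ran from 20732 to 462017 bp. The lengths of the flanks before and after the same peak were hardly related across members (Spearman's rho = 0.09, n = 702, given as a description, since neighbouring members share a flank).

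**Figure D1:**
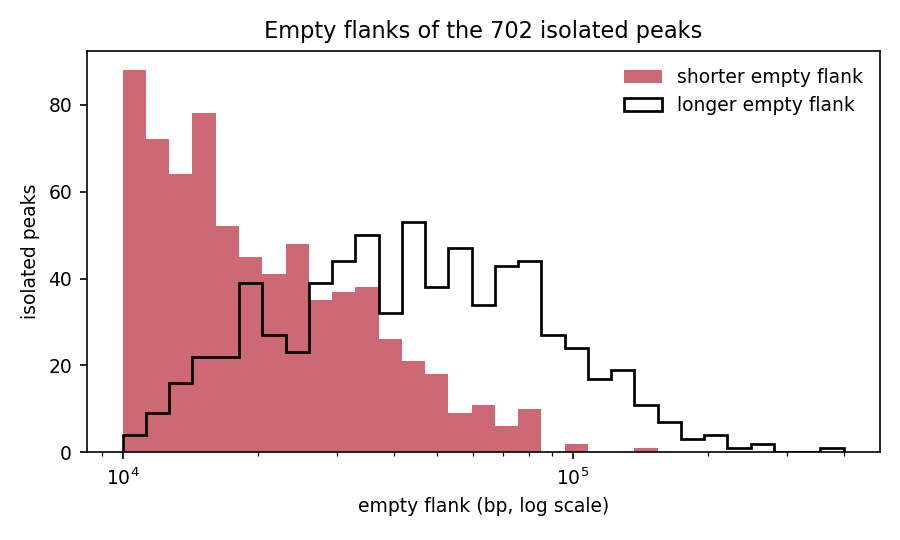
Number of isolated peaks by the length of their shorter (filled) and longer (line) empty flank, in bp on a log axis. The shorter flanks pile up just above 10000 bp, with a median of 18031 bp, and the longer flanks reach 380124 bp.

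The 2 peaks closest to the gap limit on each side had areas per bp in a similar range. So few peaks do not describe all those near the limit. Just inside the gap limit were a peak of 266 bp on chromosome 2, from 10507025 to 10507290, with a shorter flank of 10031 bp and an area per bp of 5.22, and a 635 bp peak of chromosome 1, from 3167691 to 3168325, with 10033 bp and 6.87. Just outside it were a peak of 215 bp on chromosome 1, from 16300612 to 16300826, with 9977 bp and 5.27, and a 164 bp peak of chromosome 2, from 30429863 to 30430026, with 9923 bp and 6.61. The widest member, of 2647 bp, and the next, of 2267 bp, were clearly below the width limit. The narrowest peaks that failed it alone were 3159 and 3731 bp wide, both on chromosome 1.

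Members were mostly narrow. Their width had a median of 343 bp (25th to 75th percentile 242 to 538 bp) and ran from 103 to 2647 bp, whereas clustered peaks had a median of 572 bp. Of the members, 514 (73.2%) were under 500 bp and 39 (5.56%) were 1000 bp or wider, against 43.6% and 26.2% of the clustered peaks. The medians on chromosomes 1, 2 and 3 were 341, 353 and 343 bp. Width is part of the rule only through its upper limit of 3000 bp, which applies to both sets. The 3 narrowest members were 103 bp wide on chromosome 3, from 15228506 to 15228608, and 104 and 107 bp wide on chromosome 1, from 26934041 and from 16385438. Their areas of 247, 306 and 331 were close to the smallest in the list.

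The area of a peak is the value in the signal column of the list, read here as a sum over its length. What quantity the caller summed is not stated, so the area need not measure how accessible the DNA was. The area had a median of 973 in the members (25th to 75th percentile 468 to 2462), and ran from 201 to 59023. Because the area grows with width, it was divided by the width to give the area per bp, in the unit of the caller. Peaks called higher or stronger here have a larger area per bp or a larger area. The members had a median area per bp of 2.95 (1.82 to 5.05) and a range from 0.54 to 27.2. The -log10 of the q-value, the caller's significance after correction for multiple tests, had a median of 7.51 in the members and ran from 2.84 to 44.4. Area per bp and -log10 q come from the same caller and may not be separate properties of a peak. Across members, wider peaks were also higher (Spearman's rho of width and area per bp = 0.45, n = 702, a description over peaks of the same list). Of the 1000 peaks with the largest area per bp on the 3 chromosomes, 65 were members (6.50%), close to the 6.38% of all peaks that were. Of the 1000 with the largest area, 11 were (1.10%). This last share is partly set by the rule, because 390 of those 1000 peaks were 3000 bp or wider and could not be members.

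The strongest member lay on chromosome 3, from 18620450 to 18622622. It had a width of 2173 bp, an area of 59023, an area per bp of 27.2 and a -log10 q of 44.4, and its flanks were empty over 126879 bp before it and 26700 bp after it. This was the second largest area per bp of all peaks of the 3 chromosomes and the 71st largest area. The next members by area were from 17247661 to 17249927 on chromosome 1 (area 33718), from 28445718 to 28447054 on chromosome 2 (21456), from 11039582 to 11040836 on chromosome 2 (19343) and from 6875478 to 6878124 on chromosome 1 (18653). The first of these 5 thus exceeded the second by a large margin, and the widest member of all, on chromosome 1, was the last of the 5. By area per bp the order was different and took in narrower peaks. After the strongest member came a peak of 566 bp on chromosome 2, from 12157847 to 12158412 (20.8), a 758 bp peak of chromosome 3, from 29857187 to 29857944 (20.4), a 599 bp peak of chromosome 3, from 14494650 to 14495248 (18.4), and a 575 bp peak of chromosome 2, from 10960116 to 10960690 (17.6). The last of these and the peak from 11039582, also among the 5 largest by area, were neighbours with 78891 bp of empty chromatin between them.

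The 5 most remote members were not among the 5 strongest, by area or by area per bp. The member whose shorter flank was longest lay on chromosome 1, from 7636187 to 7636488, with 278355 bp empty before it and 145367 bp after it. It was 302 bp wide and weak, with an area of 421, an area per bp of 1.39 and a -log10 q of 5.39. The next were a peak of 441 bp on chromosome 3, from 16612461 to 16612901 (shorter flank 100612 bp, area per bp 3.22), and an 846 bp peak of chromosome 1, from 25041100 to 25041945 (99862 bp, 3.41). A peak of 745 bp on chromosome 3, from 17299004 to 17299748 (82362 bp, 5.05), and an 850 bp peak of chromosome 1, from 10956505 to 10957354 (81353 bp, 6.31), followed. Over all members the length of the shorter flank was nearly unrelated to the area per bp (Spearman's rho = 0.06, n = 702, between 0.03 and 0.09 within the chromosomes, a description). The median area per bp was 2.72 in the 392 members with a shorter flank of 10 to 20 kb. It was 3.18 in the 261 members at 20 to 50 kb and 3.76 in the 49 above 50 kb. The median widths of these members also differed, at 328, 352 and 441 bp. The longest stretch, of 462017 bp, surrounded a peak of 558 bp on chromosome 1, from 2461560 to 2462117, with an area of 2760. The 3 members of smallest area, between 201 and 203, lay from 322478 to 322586 and from 35796669 to 35796820 on chromosome 1 and from 18421763 to 18421910 on chromosome 2. They were just above the smallest area of the whole list, 200.02.

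Compared with clustered peaks of like width, isolated peaks of intermediate width were higher. From 250 to 500 bp the median area per bp was 3.01 in 320 members, 2.50 in 922 peaks with 1 long gap and 1.78 in 1950 clustered peaks. From 500 to 1000 bp it was 5.35 in 149 members, 3.24 in 737 peaks with 1 long gap and 2.44 in 2125 clustered peaks. In both classes the order of the 3 sets was the same on each of the 3 chromosomes. The members exceeded the clustered peaks by 1.57, 1.79 and 1.77 times from 250 to 500 bp on chromosomes 1, 2 and 3, and by 2.39, 1.90 and 2.28 times from 500 to 1000 bp. The 25th to 75th percentiles overlapped in both, from 2.89 to 7.44 in members of 500 to 1000 bp and from 1.21 to 4.54 in the clustered peaks.

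The narrowest and the widest members did not show this difference clearly. Under 250 bp the median area per bp was 1.98 in 194 members and 2.09 in 1120 clustered peaks, and members were lower on chromosomes 1 and 3 and higher on chromosome 2. From 1000 to 3000 bp it was 5.52 in 39 members and 4.37 in 1847 clustered peaks, with ratios of 1.18, 1.04 and 1.88 on chromosomes 1, 2 and 3 from 14, 14 and 11 members.

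**Figure D2:**
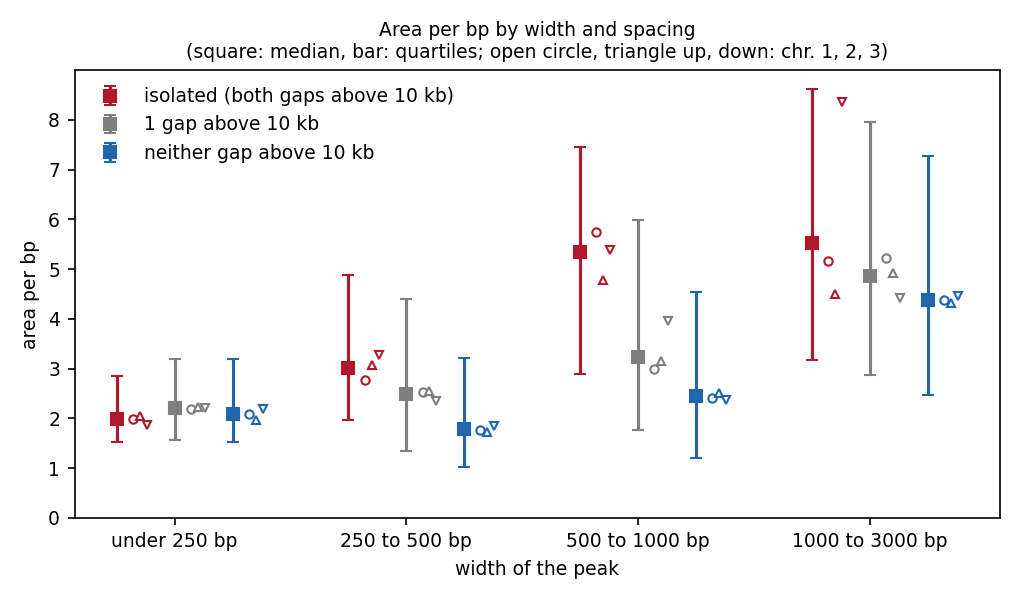
Area per bp (unit of the peak caller) of isolated peaks, peaks with 1 gap above 10 kb and clustered peaks, in 4 classes of width. Squares are medians over chromosomes 1 to 3, bars run from the 25th to the 75th percentile of the peaks, and open symbols are the medians of each chromosome; isolated peaks sit above clustered ones from 250 to 1000 bp (3.01 against 1.78 and 5.35 against 2.44) and not under 250 bp.

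Averaged over the width classes with the members' own shares as weights, the area per bp of members was 1.50 times that of clustered peaks (log2 ratio 0.59), with 1.45, 1.52 and 1.54 times on chromosomes 1, 2 and 3. Against peaks with 1 long gap it was 1.18 times. The -log10 q was higher by 2.31 against clustered peaks, and by 2.03, 2.09 and 2.42 on the 3 chromosomes. Peaks of a single list are not replicates, so no test was run across them, and an exact two-sided sign test over 3 chromosomes could not go below p = 0.25. The log2 ratio fell to 0.24 when the rule was applied to peaks above the median area only, to 0.14 with peaks above the median -log10 q only, and to 0.25 without width classes. Without width classes the difference in -log10 q was -0.14, so that the members as a whole were higher in area per bp and not in -log10 q.

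The area per bp and the -log10 q can also be read as shares of peaks, of which only the first was taken within width classes. An area per bp above the median of its width class was found in 455 of the 702 members (64.8%), against 50% of all 10546 peaks under 3000 bp and 45.9% of clustered peaks. The share of members was 62.1%, 64.3% and 68.7% on chromosomes 1, 2 and 3. A score below its upper limit of 1000, which means an area per bp below 1, was found in 29 members (4.13%), against 11.8% of all peaks of the 3 chromosomes and 14.7% of clustered peaks. Peaks this low made up a smaller share of members than of clustered peaks on each of the 3 chromosomes (5.14%, 2.94% and 4.27% of members against 14.7%, 15.6% and 13.5%). This difference is partly fixed by width. No listed area was below 200.02, so the narrowest peaks could not have an area per bp below 1, and members were mostly narrower than clustered peaks. A -log10 q above 10 was found in 241 members (34.3%), against 38.2% of all peaks under 3000 bp. This last share was close to the background.

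In the classes from 250 to 1000 bp, the area per bp was already higher with wider spacing below the limit of the rule. For peaks of 500 to 1000 bp the median area per bp was 2.42 where the nearest peak was 100 to 500 bp away, 2.63 at 500 bp to 2 kb, 3.33 at 2 to 5 kb and 3.89 at 5 to 10 kb. It was 5.05 in the 80 members with the nearest peak at 10 to 20 kb and 5.57 in the 51 at 20 to 50 kb. For peaks of 250 to 500 bp it rose from 1.75 at 100 to 500 bp to 3.04 at 5 to 10 kb, and the members had 2.86 at 10 to 20 kb and 3.24 at 20 to 50 kb. In this class the members thus lay close to the peaks at 5 to 10 kb. Under 250 bp no such order was seen, with 2.29 at the shortest distance and 2.04 in members at 10 to 20 kb. From 1000 to 3000 bp there was no steady order either, with 4.42, 4.32, 5.10 and 4.39 up to 10 kb, 3.43 in the 19 members at 10 to 20 kb and 6.75 in the 16 at 20 to 50 kb. When only clustered peaks more than 2000 bp from any other peak were used for comparison, an alternative chosen after the data were seen, the log2 ratio of members to clustered peaks was 0.31 in place of 0.59.

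**Figure D3:**
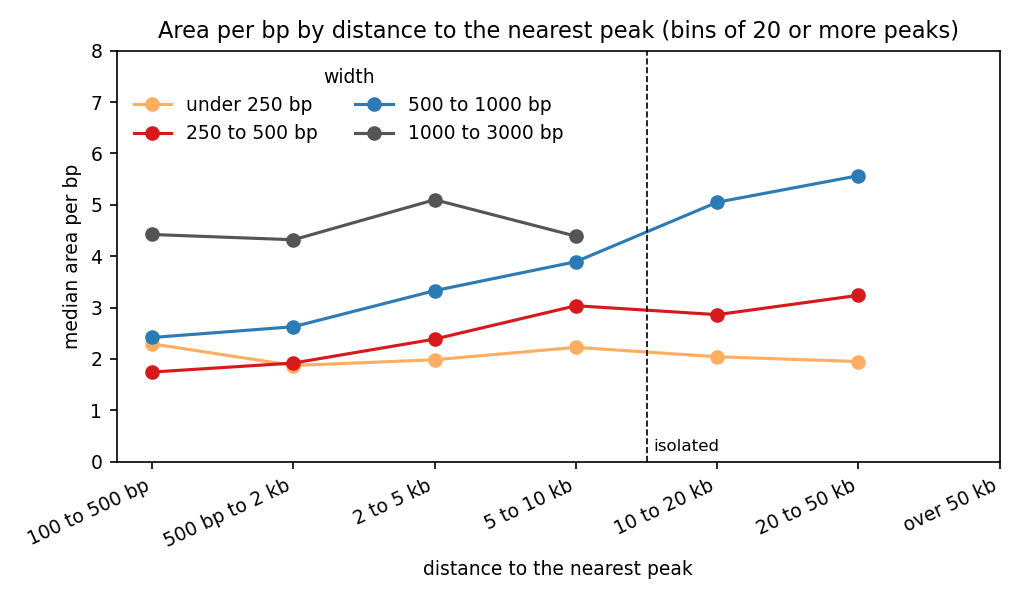
Median area per bp of peaks under 3000 bp by the distance to the nearest peak, 1 line for each class of width, with bins of fewer than 20 peaks left out. To the right of the dashed line are the isolated peaks; the line for 500 to 1000 bp climbs from 2.42 to 5.57 and the line under 250 bp stays near 2.

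The summit, the position that the list gives as an offset from the start of the peak, lay near the middle of the members. Its median position was 0.50 of the width from the start of the peak, and 0.50, 0.49 and 0.50 on chromosomes 1, 2 and 3. Between 0.25 and 0.75 of the width lay the summits of 566 members (80.6%), against 77.2% of peaks with 1 long gap and 70.7% of clustered peaks. Narrow peaks were more central in every set, and members were narrower. From 250 to 500 bp the share was 80.6% in members and 70.1% in clustered peaks, and from 500 to 1000 bp it was 75.8% and 64.9%. From 1000 to 3000 bp it was 69.2% of 39 members and 64.6% of 1847 clustered peaks. Under 250 bp the order was the opposite, with 86.6% of members and 92.8% of clustered peaks. From 250 to 1000 bp members were thus both higher and more often central than clustered peaks. Under 250 bp they were neither, over the 3 chromosomes together. These shares were not tested, for the reason given above.

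**Figure D4:**
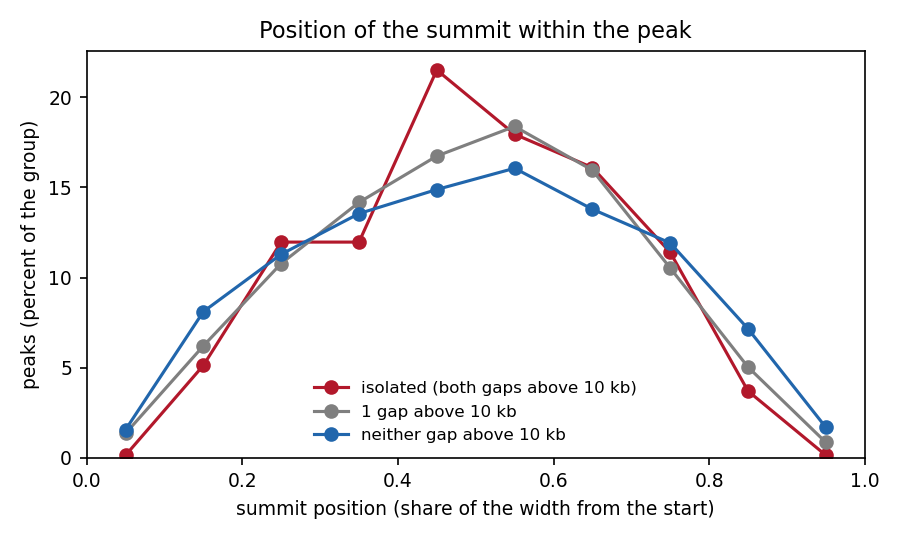
Position of the summit as a share of the width from the start of the peak, in 10 equal bins, as the percent of isolated peaks, of peaks with 1 gap above 10 kb and of clustered peaks. In the first and last bins together lie 0.285% of isolated and 3.25% of clustered peaks, and the isolated peaks are highest from 0.4 to 0.5 of the width, with 21.5%.

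Runs of successive members follow partly from the rule, because each neighbour of a member already has a long gap on the side of the member, and they are given as a description. Of the 702 members, 422 (60.1%) had at least 1 neighbouring peak that was also isolated, and 280 stood singly between peaks that were not. There were 88 runs of 2 successive members, 42 of 3 and 13 of 4. Runs of 5 to 9 members numbered 11 and held 68 members. The members can also be counted over gaps, because a peak between 2 long gaps is a member unless it is 3000 bp or wider. This recounts the 702 members and the 3 wider peaks that met the spacing rule, and is no separate result. After a gap above 10000 bp, the next gap was also above 10000 bp in 33.0% of cases (705 of 2138), and after a shorter gap in 16.2% (1433 of 8854). On chromosomes 1, 2 and 3 these shares were 34.2%, 31.2% and 33.7% after a long gap, and 15.0%, 17.0% and 16.7% after a shorter one. Successive members were hardly alike in strength, with a Spearman's rho of 0.09 for the area per bp and -0.07 for the width over 268 neighbouring pairs, which overlap within runs.

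The longest run had 9 members and spanned 296453 bp of chromosome 2, from 27676109 to 27972561. Its widths ran from 201 to 1140 bp and its areas per bp from 1.13 to 4.36, and its gaps, including the outer ones, from 10386 to 76718 bp. The widest and, by area, strongest peak of the run was that from 27960835 to 27961974, with an area of 4950, and it stood next to the weakest, from 27972361 to 27972561, with an area of 227. The other peaks had areas between 477 and 2869, so the run as a whole was made of peaks of moderate strength. A run of 8 on chromosome 3, from 24235145 to 24591002, was more uneven, with areas per bp from 1.29 to 12.2. Runs of 7 lay on chromosome 1 from 1667326 to 2031978 and from 3167691 to 3451826, and a run of 6 within 85848 bp of chromosome 1, from 35722230 to 35808077, had gaps of 10622 to 35322 bp.

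Members are defined by gaps above 10000 bp, so that their share beside long gaps is a description from which nothing is read. Of the 2139 gaps above 10000 bp, 1136 (53.1%) had an isolated peak on at least 1 side, and of the 106 gaps above 100 kb 63 had (59.4%). Of the 7 gaps above 200 kb, 5 had. Gaps between 2 members made up 12.5% of those above 10000 bp and 16.0% of those above 100 kb. Gaps above 10000 bp took up 74.2% of the length of the 3 chromosomes up to the last peak. Regions without mappable sequence and regions without accessible chromatin cannot be told apart in a peak list.

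The surroundings of the members were sparsest close to them, and beyond 50 kb the difference from other peaks was small. Between 10 and 50 kb from the edges of a member there were 8.35 peaks per 100 kb, against 12.4 around peaks with 1 long gap, 15.8 around clustered peaks and 10.6 on the 3 chromosomes as a whole. This distance is partly fixed by the rule, because the empty flanks of many members reach into it. The longer flank was also between 50 and 100 kb in 226 members and above 100 kb in 78. Densities beyond 50 kb, and their ratios below, are therefore not free of the selection either. Between 50 and 100 kb there were 10.5 peaks per 100 kb around members, 11.6 around peaks with 1 long gap and 11.4 around clustered peaks. The 3 chromosomes gave 10.9, 10.6 and 9.92 around members, against means of 10.9, 11.0 and 9.95. Between 100 and 200 kb there were 10.5 around members and 10.8 around clustered peaks, and between 200 and 500 kb 10.5 and 11.2. Over the 3 chromosomes together, both other sets had more peaks per 100 kb than the mean at every distance, so the other peaks are the closer comparison. On chromosome 2 alone, both lay below its mean between 100 and 200 kb (10.9 and 10.3 against 11.0). The share of bp covered by peaks around members was 6.69% between 10 and 50 kb, 9.25% between 50 and 100 kb and 9.25% between 100 and 200 kb. Around the other peaks under 3000 bp together it was 13.6%, 9.88% and 9.30%, against 9.30% of the chromosomes.

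**Figure D5:**
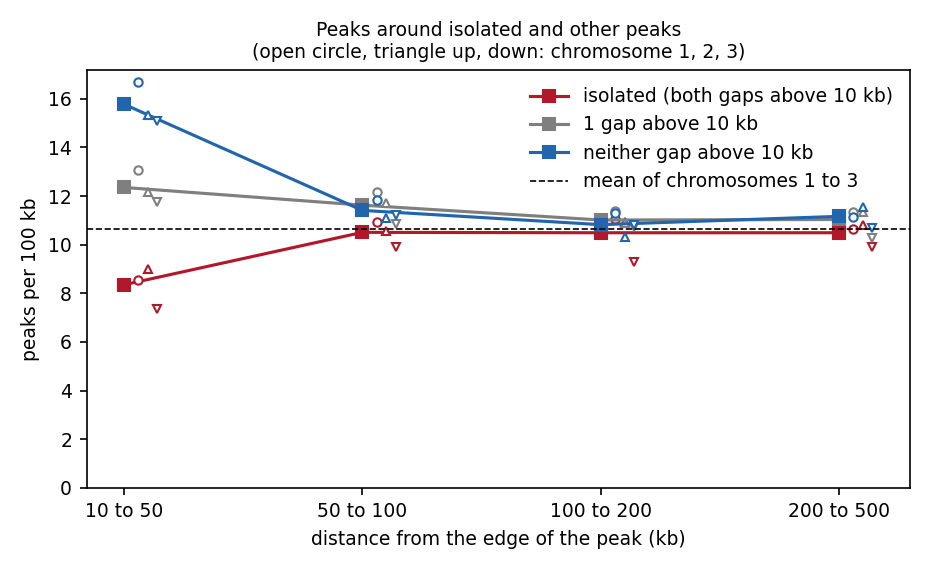
Peaks per 100 kb at 4 distances from the edge of isolated peaks, peaks with 1 gap above 10 kb and clustered peaks, with lines for chromosomes 1 to 3 together and open symbols for each chromosome. Isolated peaks lie below the dashed mean of 10.6 at 10 to 50 kb (8.35) and just below it from 50 kb on (10.5), where the other sets lie slightly above it.

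Set against all other peaks under 3000 bp together, the density around members was 0.56 times as high between 10 and 50 kb and 0.92 times between 50 and 100 kb (0.92, 0.94 and 0.89 on chromosomes 1, 2 and 3). Between 100 and 200 kb it was 0.96 times, but the chromosomes differed in direction, with 0.98, 1.04 and 0.86 on chromosomes 1, 2 and 3. It was 0.94 times between 200 and 500 kb (0.95, 0.94 and 0.94 on the 3 chromosomes). Applied to peaks above the median area, the rule gave 1.03 between 50 and 100 kb, so the direction of this small difference turned. Between 200 and 500 kb the ratio ran from 0.927 to 0.960 over the 10 alternatives run, so that a slightly lower density reached the farthest distance measured.

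Members occurred along the whole length of the chromosomes. All 102 complete windows of 1 Mb held at least 1, with a median of 6 and at most 17. The fullest window was from 31000001 to 32000000 on chromosome 1, with 17 members among 74 peaks, followed by 27000001 to 28000000 on chromosome 2, with 16 among 86, which holds the run of 9. Windows with more peaks held somewhat fewer members (Spearman's rho = -0.28 over 102 windows, a description, since the spacing rule links the 2 counts). With each chromosome cut into 10 equal parts, the share of peaks that were isolated ran from 2.59%, in part 7 of chromosome 3, to 14.4%, in part 1 of chromosome 1. The parts that stood high were not the same on the 3 chromosomes. Part 1 of chromosome 2 had 4.25% and that of chromosome 3 7.27%, and over the 3 chromosomes together the parts ran from 4.77% to 8.04%.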

How the data were processed

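Accessible chromatin was profiled by ATAC-seq in 3 libraries of normally cultured Pv11 cells and 3 of trehalose-treated cells. The submitters' processing notes name CASAVA, Bowtie2 2.3.4.3, SAMtools 1.11-5, Picard and Genrich 0.6 for these libraries. For the list itself, the sources used here do not give the build, the read filters or the caller options. The authors deposited a narrowPeak list of 10 columns with no header. Its signal column, deposited by the authors with no stated normalization or summed quantity, is called the area. The score that the authors deposited equalled 1000 times the area over the width, held at 1000, within 1 unit in all 12035 peaks. The authors also deposited the -log10 of the q-value and the offset of the summit. No area was below 200.02 and no gap below 101 bp, so that a narrow peak can be listed only with a high area per bp. Areas were not turned into counts, the depth is unknown, and no interval can be given for a single peak.

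Gaps, width classes (limits 250, 500, 1000 and 3000 bp) and densities came from Python 3.11.15 (pandas 2.3.3, numpy 2.4.6). Intervals and correlations came from scipy 1.17.1, and matplotlib 3.10.9 drew the figures. Densities count the middles of peaks within the stated distances of the edges of a peak, between 0 and the end of the last peak of the chromosome. Starts are given from 1. The code was tested on simulated data (600 peaks, 0 wrong classes).

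The members, measures and alternatives were chosen with earlier results of these data known. Named peaks are the 5 members of largest area, of largest area per bp and of longest shorter flank, the 3 of smallest area, the 3 narrowest and the 3 widest, the longest run, and the 2 peaks on each side of each limit. The other named peaks, runs and windows were picked after their values were seen. Planned comparisons of normal culture with trehalose, and of genes, base composition and motifs, were not run, because the list names no library and no annotation or genome of its build was used here.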

Additional observations from a re-analysis of the deposited data

How the results depend on the processing

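Values with no test were compared with the SD over the 3 chromosomes, and counts with a factor of 1.5. Of 53 main values recomputed, 31 stayed within these limits, 20 moved beyond them and 2 turned direction. A minimum gap of 5000 bp gave 1296 members and one of 20000 bp gave 310, in place of 702. Without chromosome 1, 2 or 3, the number of members was 449, 464 or 491. These 3 counts are among the 53, but they had to fall with the chromosome removed and say nothing on stability. With peaks above the median area only, or above the median -log10 q only, the log2 ratio of the area per bp to clustered peaks (0.59) was 0.24 or 0.14, the difference in -log10 q (2.31) was 1.57 or 0.86, the summit (0.497) was at 0.485 or 0.486, and the ratio of densities at 50 to 100 kb (0.916) was 1.03 or 0.998. Without width classes the first 2 were 0.25 and -0.14. With clustered peaks more than 500 bp from any other peak they were 0.53 and 2.09, and with more than 2000 bp 0.31 and 1.23; these settings were added after the data were seen. The difference in -log10 q was 2.54 with a minimum gap of 20000 bp and 2.08 without chromosome 3. The density ratio was 0.958 with 5000 bp and 0.856 with 20000 bp. At 100 to 200 kb that ratio (0.964) turned to 1.01 with 5000 bp, to 1.03 with either stricter list and to 1.01 without chromosome 3. The cause of these changes was not tested.

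No paired analysis was possible because no column of the file names a library or a replicate, and leaving out replicates was not possible for the same reason. Alternatives for genomic features were not run. The depth is unknown, so an empty gap means only that no peak was listed there.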

Other observations

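Chromosome 4, to which the rule was not applied when the members were chosen, was examined with the same limits after the values of the other chromosomes were seen. It held 130 isolated peaks of 968, or 13.4% (95% binomial interval by the Clopper-Pearson method 11.3% to 15.7%), on a chromosome with 69.1 peaks per Mb. Their area per bp was 1.05 times that of clustered peaks of like width there, below the 1.45 to 1.54 times on chromosomes 1, 2 and 3. From 250 to 500 bp the medians were 3.86 in 51 isolated and 3.32 in 192 clustered peaks, and from 500 to 1000 bp 6.90 in 17 and 5.70 in 146. The clustered peaks of chromosome 4 were thus higher than those of the other chromosomes, at 1.78 and 2.44, by more than the isolated peaks were, at 3.01 and 5.35. Whether the chromosomes differ in this respect was not tested. Density around the isolated peaks of chromosome 4 was 6.14 peaks per 100 kb between 50 and 100 kb, against a mean of 6.91. Around its other peaks under 3000 bp it was 8.41, a ratio of 0.73. Empty flanks reached into this distance there too, with a 75th percentile of 79760 bp for the longer flank. On the 23 unplaced scaffolds with peaks, none of 69 peaks met the rule.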
